A study of Gallus gallus with 8 samples.

Results

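Fibronectin (FN1) and the integrin subunits known to bind it were compared between 2 tissues of the chick embryo. The genes were chosen by name, with earlier results of these data known. From the platform annotation, every probe set with the symbol FN1, ITGA4, ITGA5, ITGAV, ITGB1 or ITGB3 was taken, without regard to its values. Of these 6 genes, 5 had probe sets, 17 in all, out of 13009 genes with a symbol of their own in the table. FN1 had 8 probe sets, ITGA4 and ITGB3 had 3 each, ITGB1 had 2 and ITGAV had 1. No probe set carried the symbol ITGA5, and that subunit was not analysed here.

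The cranial neural fold, the raised edge of the neural plate that holds the future neural crest, was set against the cranial neural plate, called its ventral part in the series text. Both came from embryos at stage 8 of Hamburger and Hamilton, from incubated fertile eggs with no treatment named in the labels and no strain given in the sources used here, and were dissected with needles. Each tissue had 4 samples, each on 1 Affymetrix chicken array. The number of embryos, 80 to 114 with n = 4, is stated for the series as a whole, which makes each sample a likely pool. How the embryos were divided is not stated, so p-values rest on the variation among these 4 samples a tissue, which may be partly technical. Values below are log2(intensity + 16) after quantile normalization, and a change is the neural fold mean minus the neural plate mean on that scale. Brightness differs between probe sets for reasons other than RNA amount, so levels are compared between tissues and not between probe sets. Sums over a marker list weigh bright probe sets more. The largest part of a sum is therefore a share of signal, not of RNA.

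Fibronectin is a large secreted glycoprotein that cells assemble into fibrils of the extracellular matrix. Assembly and attachment run through integrins, surface receptors made of an alpha and a beta chain. The chain α5, paired with β1, and the chain αv, paired with β3 or others, bind the arginine-glycine-aspartate site of fibronectin, while α4 with β1 binds a site in an alternatively spliced segment. In bird embryos fibronectin lies in the basement membranes around the neural tube and along the routes that neural crest cells later take.

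Array 1 of each tissue was unlike the rest: its median intensity was 195.8 for neural fold and 182.3 for neural plate, where the remaining 6 arrays had 105.4 to 121.7. Arrays of the same tissue correlated at 0.878 to 0.970. Neural fold array 1 correlated with neural plate array 1 at 0.923, above its 0.878 to 0.885 with the other neural fold arrays. Neural plate array 1 correlated at 0.888 to 0.894 with the other neural plate arrays. The labels were checked against marker genes, in lists chosen with earlier results of these data known. Of 8 tested neural crest and border markers, 8 were higher in neural fold at a limma adjusted p under 0.05. All 7 notochord and prechordal plate markers had higher means in neural plate, 5 of them at such a p. Of all tested genes, 0.924% were higher and 0.827% lower in neural fold at such a p. The summed intensity of the notochord and prechordal markers was 12918 to 19472 on the neural plate arrays and 1207 to 1813 on the neural fold arrays, so the neural plate samples carried RNA of genes known from the midline tissue under the plate. In whole tissue, fewer cells of a type and less RNA per cell cannot be told apart.

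FN1 messenger RNA was higher in neural fold. All 4 neural fold arrays lay above all 4 neural plate arrays in 3.12% of all tested probe sets. This held for all 7 tested FN1 probe sets. The brightest probe set, Gga.3994.1.A1_s_at, read 14.33, 14.33, 14.24 and 14.44 on neural fold arrays 1 to 4, and 12.65, 12.50, 12.82 and 12.44 on neural plate arrays 1 to 4. The tissues were far apart against the spread within each, with means of 14.33 ± 0.08 and 12.60 ± 0.17 (SD, n = 4). The change was 1.73 ± 0.15 (SE, limma adjusted p = 0.00088), a 3.32-fold difference, with a 95% confidence interval of 1.40 to 2.07. Only 0.447% of the 23063 tested probe sets had a larger rise.

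The second FN1 probe set, Gga.9293.1.S1_at, gave the largest change of the FN1 sets. It read 13.92, 13.64, 13.58 and 13.71 in neural fold and 11.86, 11.37, 11.81 and 11.78 in neural plate. Its change was 2.01 ± 0.17 (SE, limma adjusted p = 0.00084), or 4.02-fold. Neural plate array 2 lay below the other 3 of its tissue, and the gap to neural fold was several times that distance.

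**Figure D1:**
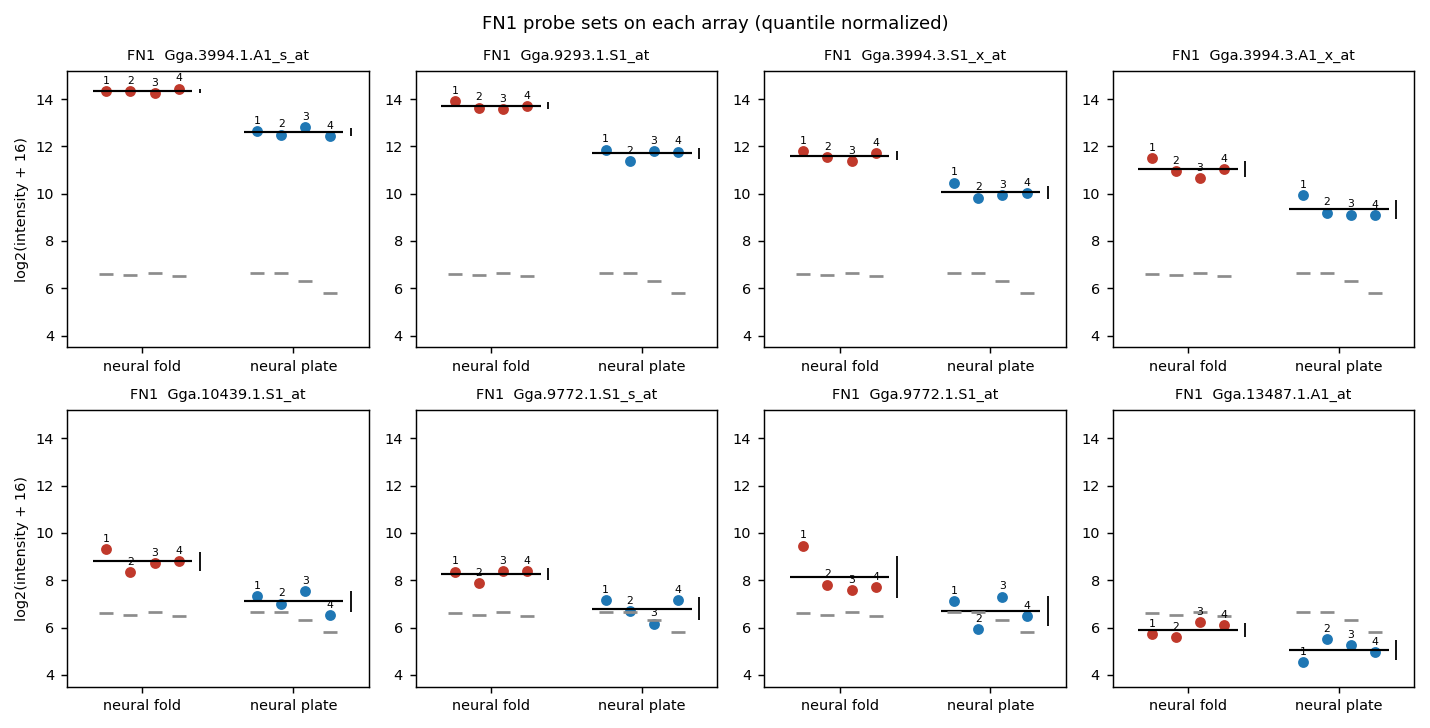
Level of each of the 8 FN1 probe sets, log2(intensity + 16) after quantile normalization, on the 4 neural fold arrays (red) and the 4 neural plate arrays (blue). Points carry the array number, horizontal lines are means, vertical lines beside them are ± 1 SD, and grey dashes are the background limit of each array. In all 8 panels the red points lie above the blue ones, and in the last panel, Gga.13487.1.A1_at, all 8 points lie under the background limit.

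The other FN1 probe sets moved the same way. Gga.3994.3.S1_x_at changed by 1.55 ± 0.19 (SE, limma adjusted p = 0.0064) and Gga.3994.3.A1_x_at by 1.70 ± 0.26 (adjusted p = 0.017). Gga.10439.1.S1_at read 9.33, 8.33, 8.72 and 8.81 in neural fold and 7.34, 7.01, 7.56 and 6.53 in neural plate, a change of 1.69 ± 0.28 (adjusted p = 0.029). Calls for these dimmer sets were less stable than those for the brightest. Gga.10439.1.S1_at was not past the threshold in the values as deposited (adjusted p = 0.092), with no filter on dim probe sets (0.11) and with 1 array left out in 4 of 8 cases, and Gga.3994.3.A1_x_at was not with no filter (0.076) and in 5 of 8 cases. Gga.9772.1.S1_s_at changed by 1.45 ± 0.26 (adjusted p = 0.038), with 3 of 4 neural plate arrays above background. With the array number as a replicate block it was not past the threshold (adjusted p = 0.060). Nor was it in the values as deposited (0.16), with median centring (0.085), with a pseudocount of 1 (0.052) or with no filter (0.15). It also missed the threshold without both arrays numbered 1 (0.054) and with 1 array left out in 7 of 8 cases.

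A pair of FN1 probe sets gave no call. Gga.9772.1.S1_at had a change of 1.44 ± 0.48 (SE, limma adjusted p = 0.35), with a wide spread in neural fold, where array 1 read 9.47 and the others 7.59 to 7.82. Gga.13487.1.A1_at lay under the background limit on all 8 arrays and under the filter on dim probe sets, so it was not tested and no fold is given.

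Of the 7 tested FN1 probe sets, 6 were past the threshold, all higher in neural fold, where 1.28% of all tested probe sets were past it and 0.694% were higher. No overlap between the tissues with neural fold above was seen in 7 of these 7, and in 3.12% of all tested probe sets. Separation in either direction was seen in 6.71% of them, and with neural fold below in 3.59%. The median change of the 7 was 1.69, against -0.00056 over all tested probe sets. These sets are not independent, since they read the same RNA on the same arrays and the annotation names only 5 distinct source sequences for the 7. Names ending in _s_at or _x_at mark probes that can also match related transcripts. The 4 FN1 sets of those kinds were all called, and so were 2 of the 4 without such a mark, Gga.9293.1.S1_at and Gga.10439.1.S1_at.

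The arrays numbered 1 of both tissues deviated together. The FN1 difference was positive within every number, which any pairing of arrays gives where the tissues do not overlap. For the brightest probe set it was 1.68 between the arrays numbered 1, 1.83 between those numbered 2, 1.43 for 3 and 1.999 for 4. Leaving out the arrays numbered 1 gave a change of 1.72 (limma adjusted p = 0.0045), and the replicate block gave adjusted p = 0.012.

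Markers of tissues next to the neural fold were read beside this result. Among all tested genes, 1.75% had a limma adjusted p under 0.05 and 9.07% an unadjusted p under 0.05. Of the 7 tested non-neural ectoderm markers, 2 (CDH1 and DLX5) were past the threshold by limma, both higher in neural fold. At an unadjusted p under 0.05 there were 5, of which 4 were higher and 1, KRT7, was lower (-0.68 ± 0.16, SE). The summed intensity of the list was 17412 to 20283 in neural fold and 10872 to 12137 in neural plate. Most of it came from EPCAM, which differed by 0.47 ± 0.14 (SE, limma adjusted p = 0.27). The head mesoderm list, of a tissue also known to make fibronectin, had 0 of 8 tested markers past the threshold by limma and 5 at an unadjusted p under 0.05, 2 of them higher in neural fold. Its summed intensity was 2293 to 2648 in neural fold and 2600 to 3385 in neural plate. For blood and endothelium it was 793.7 to 1134 and 1222 to 2676, with 0 of 5 tested markers past the threshold and 2 at an unadjusted p under 0.05, both lower in neural fold. The largest part of that sum in neural plate was LMO2, which differed by -2.39 ± 0.46 (SE, limma adjusted p = 0.0504). In each of these lists, read by brightest probe sets, 0 measured markers were under the background limit on all 8 arrays. The part of these tissues in the FN1 difference was not tested.

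The integrin subunits gave 0 calls in 8 tested probe sets by limma, and 1 (ITGB3) at an unadjusted p under 0.05, where 8.26% of all tested probe sets had such a p. Their changes ran from -0.87 to 1.42, with a median of 0.15. Each is described below, alpha chains first.

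ITGA4 encodes α4, the chain that partners β1 in a receptor for the spliced segment of fibronectin and for the adhesion molecule VCAM1. Its brightest probe set, Gga.4999.2.S1_at, read 9.74, 10.92, 11.59 and 11.97 in neural fold and 9.30, 10.17, 10.30 and 10.27 in neural plate. Array 1 was the lowest in both tissues, and neural fold array 1 lay within the range of the neural plate arrays, while the other 3 neural fold arrays lay above all 4. The difference was 1.05 ± 0.48 (SE, 95% confidence interval -0.04 to 2.13, limma adjusted p = 0.64). Within numbers it was 0.44, 0.75, 1.29 and 1.70, positive in 4 of 4.

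Without the arrays numbered 1 the ITGA4 difference was 1.28 (limma adjusted p = 0.087), and with the replicate block the adjusted p was 0.14. The probe set Gga.4999.1.S1_a_at differed by 0.53 ± 0.36 (adjusted p = 0.91) and was likewise positive in 4 of 4 numbers, from 0.28 to 0.90. The third, GgaAffx.5654.1.S1_at, lay under the filter and was not tested. It was above background on 3 neural fold and 2 neural plate arrays. ITGA4 thus had higher neural fold means in 3 of 3 probe sets and no call in either tested one. The brightest probe set of VCAM1, its other ligand, was under the background limit on all 8 arrays.

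ITGAV encodes αv, which with several beta chains binds fibronectin and vitronectin. Its only probe set, Gga.815.1.S1_at, read 5.04, 8.50, 8.55 and 8.59 in neural fold and 7.16, 8.89, 9.07 and 9.06 in neural plate. Array 1 was far below the others in both tissues, and on neural fold array 1 the gene was not above background. The difference was -0.87 ± 0.85 (SE, 95% confidence interval -2.81 to 1.06, limma adjusted p = 1.00).

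The size of the ITGAV difference moved with these arrays. Without neural fold array 1, keeping the low neural plate array 1, it was 0.0048, without neural plate array 1 it was -1.36, and without both it was -0.49 (limma adjusted p = 0.11). Within numbers it was -2.12, -0.39, -0.52 and -0.47, negative in 4 of 4. With the replicate block the adjusted p was 0.33.

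ITGB1 encodes β1, the common partner of α4, α5 and many other alpha chains. Gga.2015.1.S1_at read 12.58, 12.59, 12.81 and 12.63 in neural fold and 12.76, 12.74, 12.85 and 12.92 in neural plate. The ranges overlapped, and the difference was -0.17 ± 0.14 (SE, limma adjusted p = 0.97). Within numbers the difference was -0.19, -0.16, -0.04 and -0.29, negative in 4 of 4. Its 95% confidence interval of -0.48 to 0.14 leaves out a change of the size seen for FN1. The other probe set, Gga.111.1.S1_s_at, differed by -0.10 ± 0.17 (95% confidence interval -0.49 to 0.30, adjusted p = 1.00). It was negative within 3 numbers and positive within 1.

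ITGB3 encodes β3, which pairs with αv in a receptor for fibronectin, vitronectin and other proteins. Gga.1039.1.S1_at, its brightest probe set, read 10.85, 10.01, 10.26 and 10.05 in neural fold and 9.71, 8.90, 8.30 and 8.58 in neural plate. All 4 neural fold arrays lay above all 4 neural plate arrays. The difference was 1.42 ± 0.33 (SE, 95% confidence interval 0.67 to 2.17, unadjusted p = 0.0023 in limma), and its limma adjusted p of 0.11 was not past the threshold.

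The call for this ITGB3 probe set changed between alternatives. Array 1 was the highest in both tissues, and the difference within numbers was 1.14, 1.11, 1.95 and 1.47. With the replicate block the limma adjusted p was 0.037, without both arrays numbered 1 it was 0.013 (difference 1.59), without neural plate array 1 it was 0.025 (difference 1.73), and with median centring 0.032. Without neural fold array 1 it was 0.19 (difference 1.26), and in the values as deposited 0.10. The other ITGB3 probe sets did not share the difference: Gga.1039.2.S1_a_at differed by 0.21 ± 0.22 (95% confidence interval -0.29 to 0.71) and Gga.1039.2.S1_at by 0.09 ± 0.23 (-0.43 to 0.62). Both come from 1 source sequence, another than that of the brightest set, and the dimmest lay near background, above it on 2 neural fold and 3 neural plate arrays. The 3 probe sets of ITGB3 therefore disagree, and which of them reads the full transcript was not tested.

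**Figure D2:**
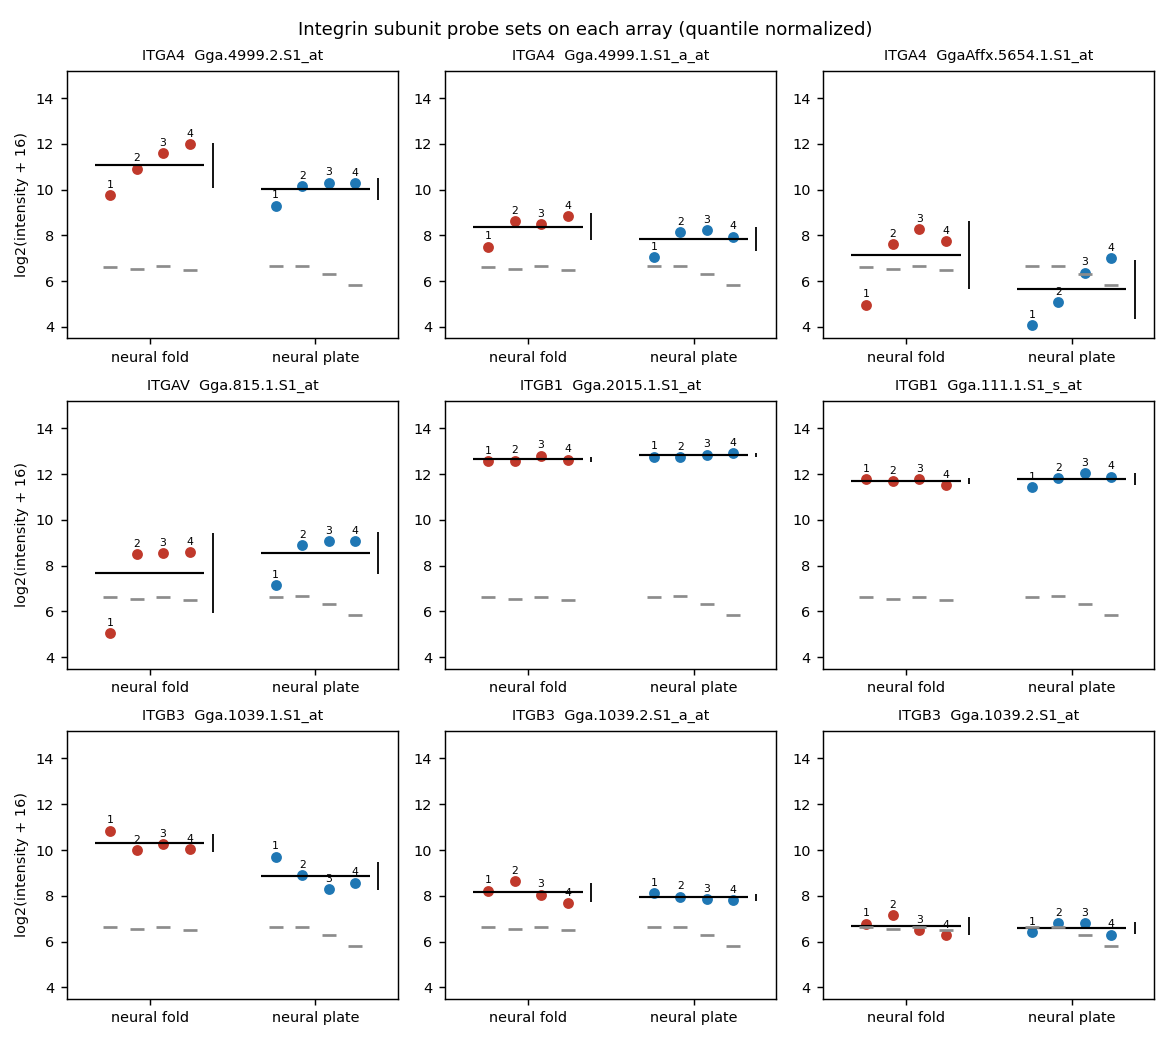
Level of each of the 9 integrin subunit probe sets, log2(intensity + 16) after quantile normalization, on the 4 neural fold arrays (red) and 4 neural plate arrays (blue), with array numbers, means (lines), ± 1 SD (vertical lines) and background limits (grey dashes). Array 1 is the lowest of its tissue for ITGA4 and ITGAV and the highest for ITGB3 Gga.1039.1.S1_at. For ITGB1 the ranges of the tissues overlap.

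**Figure D3:**
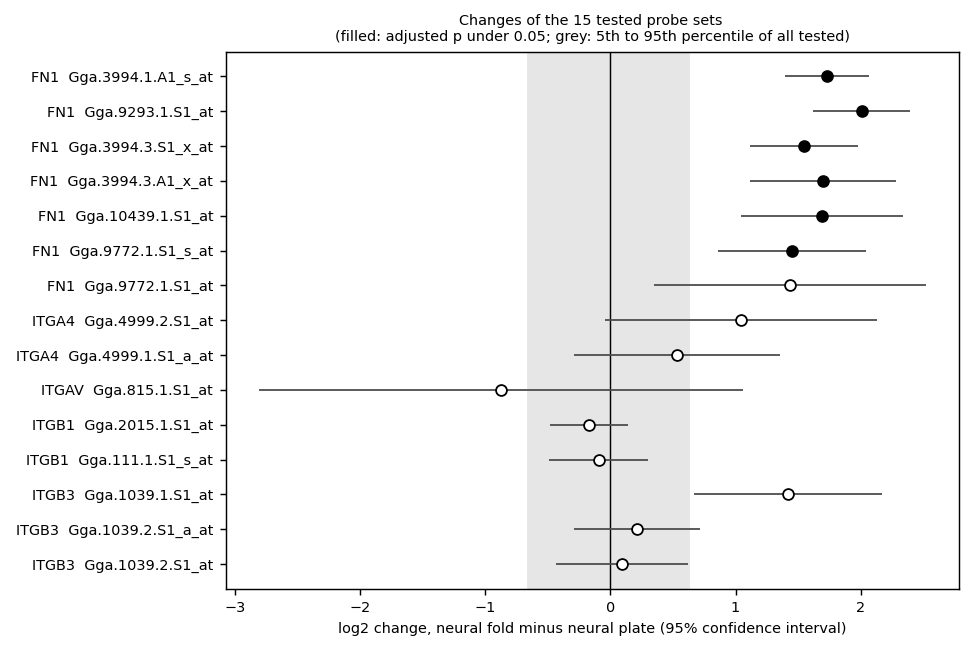
Log2 change, neural fold minus neural plate, of the 15 tested probe sets with the 95% confidence interval of the limma fit. Filled points have an adjusted p under 0.05, and the grey band spans the 5th to the 95th percentile of all tested probe sets, -0.66 to 0.63. Only FN1 sets are filled, from 1.45 to 2.01.

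Whether FN1 changed by another amount than each subunit was tested on the difference between their brightest probe sets on each array. FN1 relative to ITGB1 was 1.90 higher in neural fold, and the 4 neural fold arrays (0.70 to 1.08 about the mean of all arrays) did not overlap the 4 neural plate arrays (-1.21 to -0.77). The exact two-sided permutation p was 0.029, the smallest this design allows, and 0.057 after Benjamini-Hochberg adjustment over the 4 comparisons made. FN1 relative to ITGAV was 2.61 higher in neural fold with the same p-values by the exact permutation test, and 2.21 higher without the arrays numbered 1. Without neural fold array 1 alone, on which ITGAV was not above background, it was 1.71 higher (exact permutation p = 0.057). Within array numbers both differences were positive in 4 of 4, which any pairing gives, since the tissues did not overlap in either comparison. They ran from 1.94 to 3.80 for ITGAV and from 1.47 to 2.29 for ITGB1.

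After adjustment none of the 4 comparisons was under 0.05. With 2 of the 4 at the smallest p this design allows, adjusted values under 0.05 were out of reach, however far apart the arrays lay. For the 2 other subunits the unadjusted exact permutation p was not under 0.05 either. FN1 relative to ITGA4 was 0.69 higher in neural fold (exact permutation p = 0.20, adjusted 0.27), and 0.44 higher without the arrays numbered 1. With 1 array left out it ran from 0.21, without neural fold array 1, to 0.96. Within array numbers it was 1.24, 1.08, 0.14 and 0.30, positive in 4 of 4, a pairing that the permutation test does not use. FN1 relative to ITGB3 was 0.31 higher (exact permutation p = 0.49, adjusted 0.49), from 0.012 without neural plate array 1 to 0.59 without neural plate array 3, and positive within 3 of 4 numbers. In both cases the arrays of the tissues overlapped, and with 4 arrays a tissue this does not show equal changes. The ITGB3 result rests on the probe set that changed by 1.42, while the other ITGB3 sets changed by 0.21 and 0.09. FN1 was not compared with those.

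**Figure D4:**
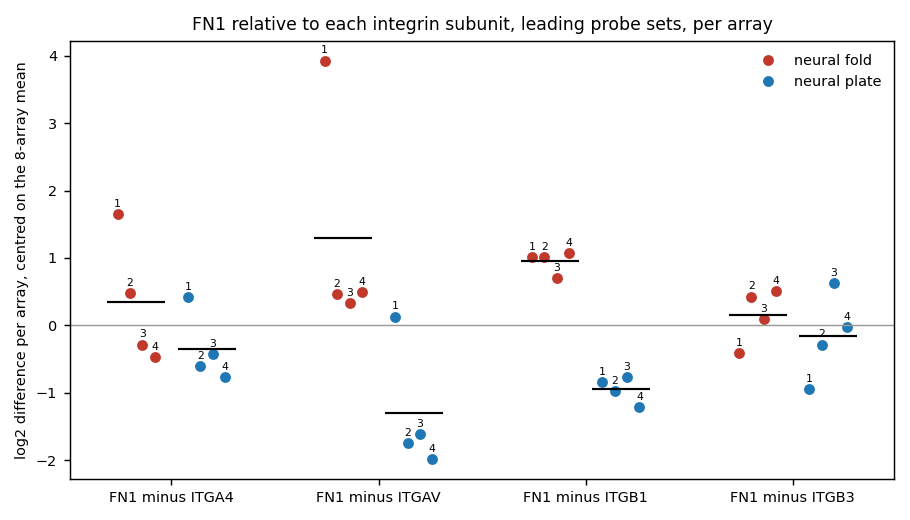
FN1 minus each integrin subunit on the log2 scale, brightest probe sets, for each neural fold (red) and neural plate (blue) array, centred on the mean of the 8 arrays. Numbers mark the arrays and lines the means. For ITGB1 the tissues form separate tight groups, for ITGAV array 1 lies highest in both tissues, and for ITGA4 and ITGB3 the tissues overlap.

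Other genes of fibronectin adhesion were read from 3 lists, each gene by its brightest probe set. Among all 10279 genes tested this way, 1.75% had an adjusted p under 0.05, with 0.924% raised and 0.827% reduced in neural fold, and the median change was -0.0052. Of 8 other subunits of fibronectin-binding integrins, 5 were measured and 4 tested, with 0 past the threshold by limma and 0 at an unadjusted p under 0.05. ITGA8 differed by 0.64 ± 0.31 (SE, adjusted p = 0.68), ITGA3 by 0.37 ± 0.59 and ITGB5 by -0.07 ± 0.18, with a list median of 0.25. The ITGA8 set was above background on 3 neural fold and 2 neural plate arrays. A second ITGA8 set, under the filter and not tested, differed by -0.43. The brightest ITGB6 set was under background on all 8 arrays.

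Of 32 cytoplasmic adaptors and kinases of integrin adhesion sites, 28 were tested and 0 passed by limma, with 2 at an unadjusted p under 0.05, both higher in neural fold. By comparison, 9.07% of all tested genes had such a p. The list median was 0.12, and 21 of 28 differences were positive. PTK2, the focal adhesion kinase, read 12.38, 11.90, 11.99 and 12.05 in neural fold and 11.45, 11.28, 11.32 and 11.26 in neural plate. Its other tested probe sets differed by 0.69 ± 0.24 (SE, limma adjusted p = 0.40) and 0.57 ± 0.14 (0.15). The brightest set did not overlap between the tissues, as was seen in 6.71% of all tested probe sets. This set differed by 0.75 ± 0.16 (SE, limma adjusted p = 0.076). It was past the threshold without both arrays numbered 1 (0.028), in the values as deposited (0.032), with the filter at the 60th percentile (0.025), with an intensity trend (0.013) and with a term for the arrays numbered 1 (0.0069), and not with the replicate block (0.053), median centring (0.55), no filter (0.29) or any 1 array left out (0.085 to 0.23). ZYX, the adhesion-site protein zyxin, differed by 0.54 ± 0.18 (adjusted p = 0.36). The other ZYX probe sets differed by 0.42 ± 0.14 (SE, limma adjusted p = 0.38) and 0.72 ± 0.21 (0.27), without a call. BCAR1, a docking protein downstream of PTK2, differed by 0.72 ± 0.33 (0.65). TLN1, VCL and ILK, known to link integrins to actin, differed by 0.36 ± 0.52, -0.04 ± 0.19 and 0.04 ± 0.25.

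The last list held 32 genes grouped as fibronectin-binding or fibril-associated matrix. Binding to fibronectin was not checked gene by gene, and VCAM1, the α4 ligand named above, FNDC3A and FNDC3B are among them. In this list 28 genes were measured and 25 tested. By limma 2 passed, both with lower means in neural fold, and 23 did not. The list median was -0.14. At an unadjusted p under 0.05 there were 7, where 9.07% of all tested genes had such a p. Of the 7, 3 had higher means in neural fold, TNC (1.36 ± 0.56), FBN2 (0.88 ± 0.28) and SDC1 (0.56 ± 0.22). The others had lower means: TGM2 (-1.19 ± 0.34), SDC2 (-0.36 ± 0.16), and VTN and POSTN, given below. The tissues overlapped for TNC and SDC1, and TNC was above background on 3 of 4 neural plate arrays. SDC1 was past the adjusted threshold with a term for the arrays numbered 1. VTN, vitronectin, an αv integrin ligand also known as a plasma protein, read 9.92, 10.21, 9.71 and 10.32 in neural fold and 11.49, 11.57, 11.44 and 11.41 in neural plate. It changed by -1.44 ± 0.17 (SE, limma adjusted p = 0.0060), the opposite direction to FN1, and was not past the threshold with median centring (0.13). POSTN, periostin, a matrix protein that binds fibronectin and αv integrins, read 6.00, 6.89, 7.56 and 7.58 in neural fold and 9.94, 11.03, 11.14 and 11.43 in neural plate. It changed by -3.88 ± 0.43 (adjusted p = 0.0042), with 3 of 4 neural fold arrays above background, and its second probe set by -2.72 ± 0.20 (adjusted p = 0.00056). The notochord and prechordal markers, given above, and the endoderm factor SOX17 (-2.70 ± 0.29, adjusted p = 0.0037, above background on 1 of 4 neural fold arrays) were also higher in neural plate. SOX17 was the 1 of 6 tested endoderm markers past the threshold, with 4 differences negative, 2 positive and a median of -0.26. The endoderm list summed to 1442 to 2471 in neural fold and 3128 to 4226 in neural plate. Its largest part in neural plate was APOA1, which differed by -1.42 ± 0.36 (limma adjusted p = 0.16). The part of those tissues in the VTN and POSTN differences was not tested.

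**Figure D5:**
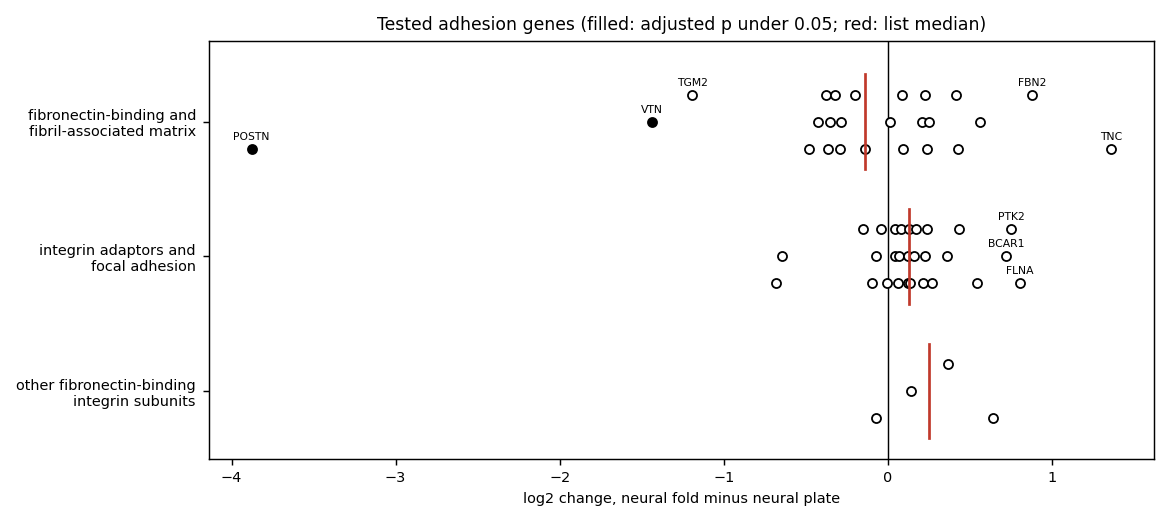
Log2 change, neural fold minus neural plate, of each tested gene in the 3 adhesion lists, by its brightest probe set. Filled points have an adjusted p under 0.05 and red lines are list medians (-0.14, 0.12 and 0.25 from top to bottom). Only POSTN at -3.88 and VTN at -1.44 are filled, and genes beyond 0.7 in either direction are named.

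The genes whose profile over the 8 arrays lay nearest to that of the brightest FN1 probe set were found by the root mean square difference of the profiles, each centred on its own mean. In order they were SOX8 (0.18), GRPR (0.21), MPZL3 (0.23), CBLN3 (0.24), RAB26 (0.24) and BHLHE22 (0.26, all in log2 units). SOX8 is a transcription factor of the neural crest, GRPR a receptor for a bombesin-like peptide, RAB26 a small GTPase of vesicle traffic and BHLHE22 a neural transcription factor. All 6 had higher means in neural fold, which follows from the way they were picked. On the same measure the other FN1 probe sets lay at 0.21 to 0.64, the brightest ITGB3 set at 0.50, ITGA4 at 0.75, ITGB1 at 0.96 and ITGAV at 1.79. This ranking describes 8 arrays of 2 tissues, where the difference between tissues makes up most of the FN1 profile.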

How the data were processed

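The authors deposited 1 linear intensity for each probe set on each array. The submitters' processing notes name GCOS, the array maker's software. Its version and background treatment are not given in the sources used here. Trimmed by 2% at each end, each array averaged 500.1. Here the 96 control probe sets of 38535 were left out, a pseudocount of 16 was added, log2 was taken and the arrays, whose medians differed by 0.80, were quantile normalized. Probe sets at or above the 40th percentile of mean level (23063) were tested with lmFit and eBayes (limma 3.58.1, R 4.3.3), Benjamini-Hochberg over all of them, threshold 0.05. Of 17 member probe sets, 15 passed this filter. The fit was tested on simulated data.

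The background limit of an array was set at the 95th percentile of signal over 59 controls against bacterial and tag sequences, carried to the normalized scale. The number of arrays limits precision. Symbols came from the platform's annotation, and the brightest probe set stood for a gene. Sequences were not used here. All 5 measured symbols are in the RefSeq table.

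Arrays numbered 1 deviated together: over all tested probe sets their deviations from the tissue means correlated at 0.62. The same-numbered pairs 2, 3 and 4 correlated at 0.19, 0.29 and 0.21, and pairs of different numbers at -0.44 to 0.28. Neural fold array 2 correlated more with neural plate array 4 (0.28) than with neural plate array 2. A pairing by number is therefore clear only for the arrays numbered 1. The labels say nothing of what a number shares. Fits with the number as a replicate block stand beside results whose call they change.

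Named were all member probe sets and, from each list, up to 6 genes past the threshold or else up to 3 with the smallest adjusted p. TLN1, VCL, ILK, VCAM1, TNC, FBN2, SDC1, TGM2, SDC2, KRT7, EPCAM, APOA1, LMO2 and PAX6 were added after their values were seen. Markers of neural crest, non-neural ectoderm, head mesoderm, notochord, endoderm, blood and neural tissue (7 lists) served as checks. Of 7 pan-neural markers, 6 had lower means in neural fold, 2 of them past the threshold, and 1, PAX6, had a higher mean (0.43). The members, lists and processing were chosen with earlier results of these data known. Alternatives were scaling, pseudocount, filter, variance trend, block, a term for arrays numbered 1, and left-out arrays. The planned comparison of FN1 with ITGA5 was not made.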

Additional observations from a re-analysis of the deposited data

Results flagged for a closer look

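In 7 of the 34 sets of 4 arrays (17 probe sets in 2 tissues), 1 array lay farther from the rest than Dixon's 95% limit for 4 values allows, a limit that chance passes in about 1 set of 20. ITGAV was set apart on array 1 of both tissues, at 5.04 in neural fold against 8.50 to 8.59 on the others, and at 7.16 in neural plate against 8.89 to 9.07. ITGA4 Gga.4999.2.S1_at lay at 9.30 on neural plate array 1 against 10.17 to 10.30. Among FN1 probe sets, Gga.9772.1.S1_at read 9.47 on neural fold array 1 (others 7.59 to 7.82) and Gga.3994.3.A1_x_at read 9.93 on neural plate array 1 (others 9.10 to 9.20). Array 2 stood apart for Gga.9293.1.S1_at in neural plate, at 11.37 against 11.78 to 11.86, and for Gga.9772.1.S1_s_at in neural fold, at 7.89 against 8.37 to 8.40. Of the 7, 5 fell on arrays numbered 1.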

How the results depend on the processing

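The brightest FN1 probe set was past the threshold in every alternative that tested single probe sets, with changes of 1.69 to 1.81. Averaging each gene's probe sets was read for the adhesion lists only. With no filter on dim probe sets, 3 FN1 and 3 member probe sets were past it, against 6 and 6, and in the values as deposited 4 and 4. Leaving out 1 array gave 3 to 6 FN1 and 3 to 7 member calls, the lowest without neural fold array 4, neural plate array 2 or neural plate array 4. The ITGB3 difference became a call at 1.42 with the replicate block, median centring and a term for the arrays numbered 1, and at 1.59 without both of them. It ranged from 1.22 to 1.73 with 1 array left out. ITGAV ranged from -1.36 to 0.0048, changing sign without neural fold array 1, and ITGB3 Gga.1039.2.S1_at from -0.064 to 0.23. The replicate block changed the call of 2 member probe sets, ITGB3 Gga.1039.1.S1_at and FN1 Gga.9772.1.S1_s_at, and of no other. Among adaptors, 1 gene was called with values as deposited, the filter at the 60th percentile, an intensity trend, a term for arrays numbered 1 and without both of them (PTK2), and 1 when each gene's probe sets were averaged (ZYX). Among matrix genes 1 (POSTN) was called with median centring and 3 (VTN and POSTN lower, SDC1 higher) with a term for the arrays numbered 1. Over all probe sets there were 295 calls, 151 with median centring, 117 with no filter, 863 with a term for the arrays numbered 1, 582 without both of them and 145 to 305 with 1 array left out. With 1 array left out, in an exact test added after seeing the data, FN1 minus ITGAV was 1.71 to 3.10. Its unadjusted exact p was not under 0.05 without any 1 of the neural fold arrays (p = 0.057). Without both arrays numbered 1 no exact test was run. The cause of these shifts was not tested. Dim probe sets, such as FN1 Gga.13487.1.A1_at, are limited by their signal over background.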
